A study of Danio rerio with 6 samples.

Results

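The enzymes described here are 9 genes that build ceramide in the zebrafish embryo, taken by name from the 31953 genes measured. They are the serine palmitoyltransferase subunits sptlc1, sptlc2b and sptlc3, the ceramide synthases cers2a, cers2b, cers5 and cers6, and the desaturases degs1 and degs2. All 9 passed the filter on low values, which asks for 3 or more libraries with a normalised value of 10 or higher. The libraries came from embryos of the line Tg(krt18:krt18-GFP) at 6 hpf (hours post fertilisation). Pooled embryos were dissociated and sorted by GFP. GFP-positive cells were labelled as enveloping layer (EVL), the surface epithelium, and GFP-negative cells as non-EVL. Each group had 3 libraries, and both groups carried the same transgene, a keratin 18-GFP fusion driven by krt18. Non-EVL cells are therefore a mixture of all cells without GFP, and the comparison asks how ceramide synthesis genes differ between the surface epithelium and that mixture.

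Sphingolipid synthesis starts in the endoplasmic reticulum, where serine palmitoyltransferase joins serine to a fatty acyl-CoA to form the sphingoid backbone. Ceramide synthases then attach a fatty acid whose length depends on the enzyme, and a desaturase turns dihydroceramide into ceramide. Ceramide is the precursor of sphingomyelin, glycosphingolipids and sphingosine-1-phosphate, and in mammalian epidermis ceramides with very long or hydroxylated chains are a main lipid of the permeability barrier.

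The libraries held 32187658 to 46144557 reads assigned to genes. In EVL replicates 1, 2 and 3 the gene AC024175.4 held 34.5%, 42.7% and 40.2% of these reads. In non-EVL replicates 1, 2 and 3 it held 30.1%, 34.97% and 34.3%. The labels name no clutch or sort for any replicate, and p-values therefore cover the spread among these 6 libraries alone, which may be technical. All 6 EVL markers listed (krt18, krt4, krt5, krt8, cldne and cldnb) were higher in EVL libraries, and their summed level ran from 614898 to 2029820 normalised reads in EVL and from 32040 to 43272 in non-EVL. Cells were sorted on a krt18 fusion driven by krt18, so the rise of krt18 follows from the sort and is no separate check. Normalised reads are reads divided by the library's size factor. Of 5 deep cell markers (sox2, sox3, ta, eve1 and szl), 4 were called lower in EVL, with sums of 11085 to 20042 against 22472 to 36762. The uncalled marker was ta (limma, adjusted p = 0.127). With 1 library left out, sox2 and szl were called in all 6 fits, but sox3 and eve1 in only 2. With limma-voom sox3 and eve1 were not called (adjusted p = 0.0579 and 0.0617). Over all tested genes 8.80% were called higher and 0.676% lower. Of 4 germ cell markers 3 were lower in EVL, dnd1 by 15.8-fold, nanos3 by 8.87-fold and tdrd7 by 6.58-fold. With limma-voom these 3 were not called (adjusted p = 0.0527, 0.0522 and 0.0814). The other one, ddx4, had 1304, 3296 and 2677 normalised reads in EVL and 1363, 3453 and 2606 in non-EVL (limma, adjusted p = 0.978). The sums of the 4, with ddx4 among them, were 1569 to 3503 against 3585 to 6094. Markers of the yolk syncytial layer summed to at most 66.5 and of macrophages to at most 22.0 in any library, with mpeg1.1 at 0 in every library. The part of these markers in the results was not tested.

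Serine palmitoyltransferase, the ceramide synthases and the desaturases each had 1 gene that was far higher in EVL cells. The desaturase degs2 was 25.4-fold, the serine palmitoyltransferase subunit sptlc3 13.9-fold and the ceramide synthase cers5 7.90-fold higher, whereas the ceramide synthase cers2b was 1.95-fold lower. Thus 3 of the 9 enzymes were called higher and 1 lower (limma, Benjamini-Hochberg adjusted p under 0.05), where 8.80% of all 15971 genes tested were called higher and 0.676% lower. The other 5, sptlc1, sptlc2b, cers2a, cers6 and degs1, did not pass the test. The median log2 fold change of the 9 was 0.65, against -0.06 over all tested genes.

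**Figure D1:**
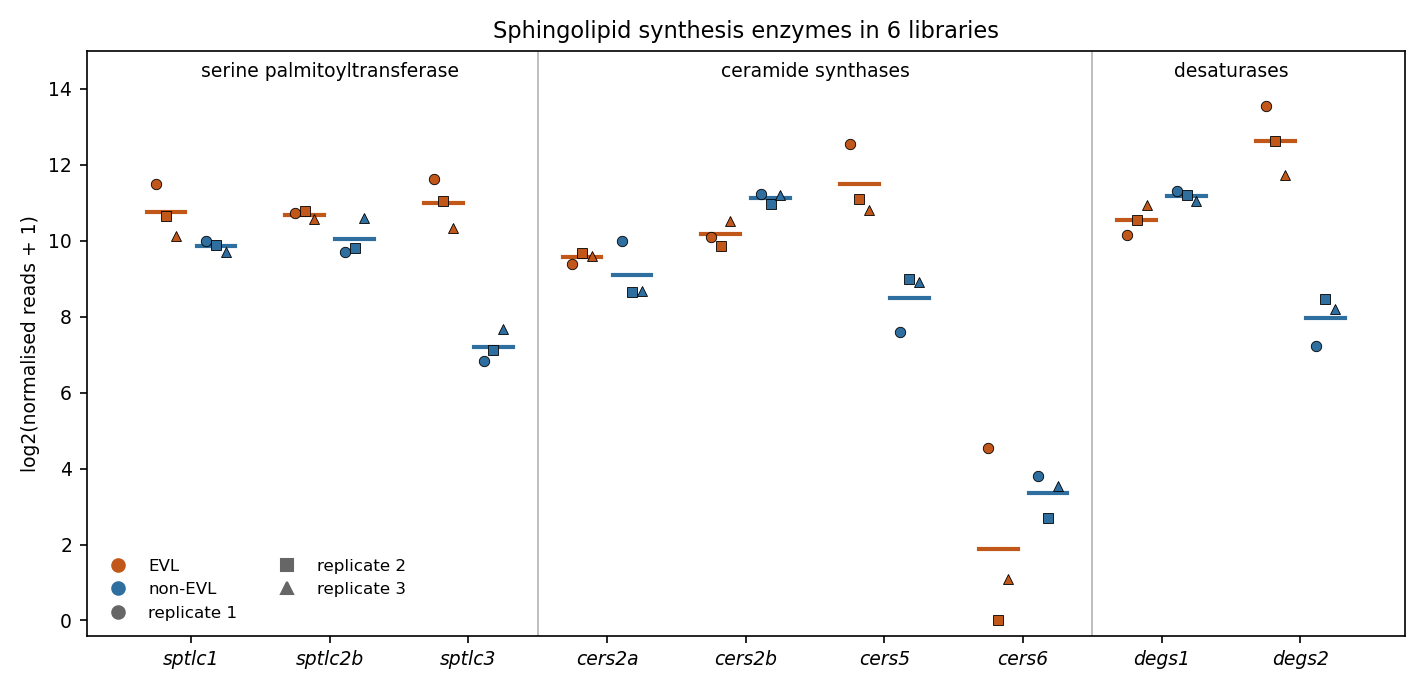
Level of the 9 enzymes in the 6 libraries, as log2(normalised reads + 1) on the vertical axis. Points are libraries (orange EVL, blue non-EVL, shape by replicate) and bars are group means. The groups stand far apart for degs2, sptlc3 and cers5, and overlap for sptlc2b, cers2a and cers6.

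The first step is catalysed by a complex in which sptlc1, needed for activity, pairs with a catalytic partner, sptlc2 or sptlc3. The obligate subunit sptlc1 (ENSDARG00000042995) had 2886, 1618 and 1123 normalised reads in EVL replicates 1, 2 and 3, and 1011, 938 and 827 in non-EVL replicates 1, 2 and 3. Every EVL library lay above every non-EVL library, but EVL replicate 3 was close to non-EVL replicate 1. The log2 fold change of 0.91 (SE 0.32, 95% interval 0.17 to 1.65) did not pass the test (limma, adjusted p = 0.135). Of 19 alternative fits, 2 called it: limma without EVL replicate 3 (log2 fold change 1.23, adjusted p = 0.0403) and DESeq2 (1.03, adjusted p = 0.0442). Without EVL replicate 1 the log2 fold change of sptlc1 was 0.55 (limma, adjusted p = 0.250), and the highest adjusted p was 0.321, without non-EVL replicate 3.

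The catalytic partner sptlc2b (ENSDARG00000074287) had 1691, 1743 and 1508 normalised reads in EVL and 837, 888 and 1547 in non-EVL libraries. The groups overlapped, because non-EVL replicate 3 stood among the EVL libraries. Its log2 fold change of 0.65 (SE 0.25, 95% interval 0.07 to 1.23) did not pass the test (limma, adjusted p = 0.171), and without non-EVL replicate 3 it was 0.93 and called (adjusted p = 0.0402). That was the 1 call for sptlc2b in 19 alternative fits, and without non-EVL replicate 1 or 2 the log2 fold change was 0.49 (limma, adjusted p = 0.319) or 0.53 (adjusted p = 0.420).

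The alternative partner sptlc3 (ENSDARG00000030743) had 3168, 2091 and 1286 normalised reads in EVL libraries and 112, 138 and 202 in non-EVL libraries. In humans this subunit is known to shift the complex towards acyl-CoAs of other lengths than palmitoyl-CoA. Even the lowest EVL library stood several-fold above the highest non-EVL library. The mean rose from 150.5 ± 46.1 to 2182 ± 944 (SD, n = 3 each), a log2 fold change of 3.80 (SE 0.37; limma, adjusted p = 0.000674). It was called in every one of 19 alternative fits, with log2 fold changes between 3.48 and 4.13.

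The summed reads of the catalytic partners, sptlc2b and sptlc3 with sptlc2a, were 5141, 4019 and 2958 in EVL and 1078, 1141 and 1861 in non-EVL libraries. These are sums of normalised reads and not levels per transcript length. All EVL libraries lay above all non-EVL libraries, a 2.99-fold difference of means on the log scale (exact two-sided permutation test, p = 0.1, the smallest that 3 against 3 libraries allow). This sum includes the called sptlc3, so it is not separate evidence from that gene's own difference.

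Among the 4 ceramide synthases, cers5 was called higher and cers2b lower, and cers2a and cers6 did not pass the test. The gene cers5 (ENSDARG00000002365), whose mammalian product prefers palmitoyl-CoA, had 5949, 2182 and 1801 normalised reads in EVL and 192, 512 and 479 in non-EVL libraries. All EVL libraries were above all non-EVL libraries, and replicate 1 was the highest EVL and the lowest non-EVL library. The log2 fold change was 2.98 (SE 0.52; limma, adjusted p = 0.00860), with 2.45 to 3.31 when 1 library was left out. The EVL mean of 3311 ± 2293 (SD, n = 3) leaned on replicate 1 and was 1992 without it, so that the ratio of group means went from 8.40 to 5.05.

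The gene cers2b (ENSDARG00000058992) fell in EVL cells. Its mammalian counterpart CERS2 makes ceramides with very long acyl chains. It had 1097, 934 and 1476 normalised reads in EVL against 2406, 1992 and 2362 in non-EVL libraries. The groups did not overlap, and the EVL mean of 1169 ± 278 was 51.9% of the non-EVL mean of 2253 ± 227 (SD, n = 3 each). The log2 fold change was -0.97 (SE 0.21; limma, adjusted p = 0.0222). Leaving out any library except EVL replicate 3 ended the call: limma's adjusted p was 0.0588 and 0.0737 without EVL replicates 1 and 2, and 0.0664, 0.0533 and 0.0974 without non-EVL replicates 1, 2 and 3. The direction was the same in all 19 alternative fits, between -1.27 and -0.82.

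Its paralogue cers2a (ENSDARG00000013704) had 673, 813 and 779 normalised reads in EVL and 1016, 400 and 410 in non-EVL libraries. The EVL libraries were close together, and non-EVL replicate 1 alone was above them. The log2 fold change was 0.45 (95% interval -0.38 to 1.29; limma, adjusted p = 0.512), and none of 19 alternative fits called it. Without non-EVL replicate 1, 2 or 3 the log2 fold change of cers2a was 0.89, 0.22 or 0.24 (limma, adjusted p = 0.0517, 0.823 or 0.812).

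The gene cers6 (ENSDARG00000053583) was barely detected. EVL replicates 1, 2 and 3 held 17, 0 and 1 reads, and non-EVL replicates 1, 2 and 3 held 15, 6 and 15. The 0 in EVL replicate 2 allows up to 3.32 normalised reads. The groups overlapped, and the difference was not detectable at this depth (limma, adjusted p = 0.530, 95% interval of the log2 fold change -4.29 to 1.35).

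The last step introduces the double bond of ceramide. In mammals DEGS1 is the general dihydroceramide desaturase, and DEGS2 also adds a hydroxyl group, which gives the phytoceramides found in skin and intestine. The gene degs1 (ENSDARG00000007347) had 1135, 1481 and 1974 normalised reads in EVL and 2532, 2361 and 2100 in non-EVL libraries. Every EVL library lay below every non-EVL library, with EVL replicate 3 close to non-EVL replicate 3. The log2 fold change of -0.64 (SE 0.22, 95% interval -1.15 to -0.13) did not pass the test (limma, adjusted p = 0.128). With libraries scaled to their total alone it was -0.94 and called (adjusted p = 0.0359), the 1 call for degs1 in 19 alternative fits. Without EVL replicate 1 the log2 fold change was -0.44 (limma, adjusted p = 0.278).

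The gene degs2 (ENSDARG00000042544) had 11973, 6278 and 3395 normalised reads in EVL and 149, 351 and 293 in non-EVL libraries. Even the lowest EVL library stood far above the highest non-EVL library. The mean rose from 264 ± 104 to 7215 ± 4365 (SD, n = 3 each), a log2 fold change of 4.67 (SE 0.48; limma, adjusted p = 0.000796), and 1.47% of all tested genes had a larger rise. All 19 alternative fits called it, with log2 fold changes from 4.21 to 5.12. The summed reads of degs1 and degs2 were 13108, 7759 and 5368 in EVL and 2681, 2712 and 2392 in non-EVL libraries. This was a 3.15-fold difference on the log scale with no overlap (exact two-sided permutation test, p = 0.1, the smallest possible). The sum includes the called degs2, so it is not separate evidence from that gene's own difference.

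**Figure D2:**
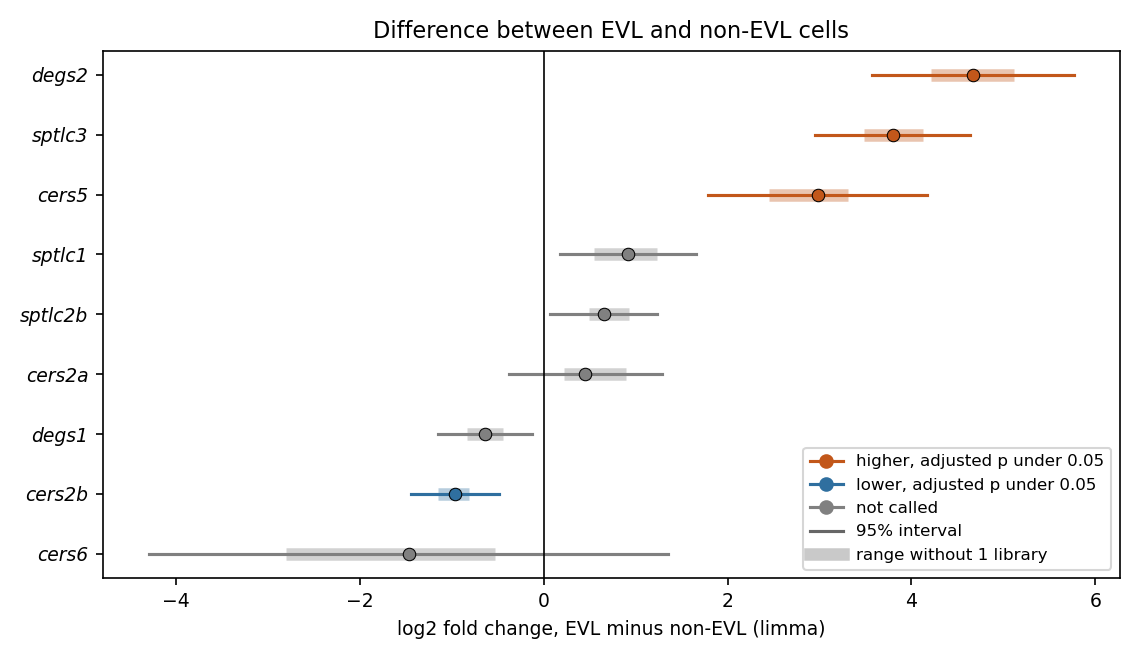
Log2 fold change of each enzyme, EVL minus non-EVL (limma). Points are estimates, thin lines 95% intervals and thick bars the range when 1 library is left out, with called genes in colour. The values of degs2 (4.67), sptlc3 (3.80) and cers5 (2.98) and their intervals lie well above 0, cers2b (-0.97) lies below, and the interval of cers6 spans 0 widely.

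The groups did not overlap in 4 enzymes that were higher in EVL (degs2, sptlc3, cers5 and sptlc1) and in 2 that were lower (cers2b and degs1). Over all tested genes the groups did not overlap with EVL higher in 17.4% and with EVL lower in 13.5%.

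The balance between related enzymes was compared within each library, where the library's scaling cancels apart from the added 1. The ratios are of normalised reads and not per transcript length, so only their difference between groups is read. In each of the 4 pairs compared the groups did not overlap. Each pair holds a called enzyme (degs2, sptlc3, cers2b or cers5), so its ratio is not separate evidence from that enzyme's own difference. The share of other gene pairs without overlap was not computed. Each difference gave an exact two-sided permutation p = 0.1, the smallest that 3 against 3 libraries allow, so none can pass a threshold of 0.05.

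The degs2 to degs1 ratio was 10.5, 4.24 and 1.72 in EVL and 0.0590, 0.149 and 0.139 in non-EVL libraries. In every EVL library the degs2 reads were more numerous than the degs1 reads, and in every non-EVL library the degs1 reads were more numerous. Transcript length was not taken into account, so this does not show which gene had more transcripts. The groups differed by 5.31 on the log2 scale, or 39.6-fold, and by 4.65 without EVL replicate 1 and 5.96 without EVL replicate 3.

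For sptlc3 against sptlc2b the ratio was 1.87, 1.20 and 0.853 in EVL and 0.134, 0.155 and 0.130 in non-EVL libraries. The non-EVL libraries were nearly alike, and the groups differed by 3.15 on the log2 scale, or 8.86-fold. Leaving out 1 library gave 2.85 to 3.42.

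For cers2a against cers2b the ratio was 0.613, 0.870 and 0.528 in EVL and 0.422, 0.201 and 0.174 in non-EVL libraries. The difference of 1.42 on the log2 scale, or 2.67-fold, was the smallest of the 4 pairs, and non-EVL replicate 1 came close to the EVL libraries. For cers6 against cers5 the difference was -4.45, but it rested on at most 17 reads of cers6 per library. It moved from -4.85 to -3.57 with an added 0.5 or 5 in place of 1, and from -5.26 to -3.71 when 1 library was left out.

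**Figure D3:**
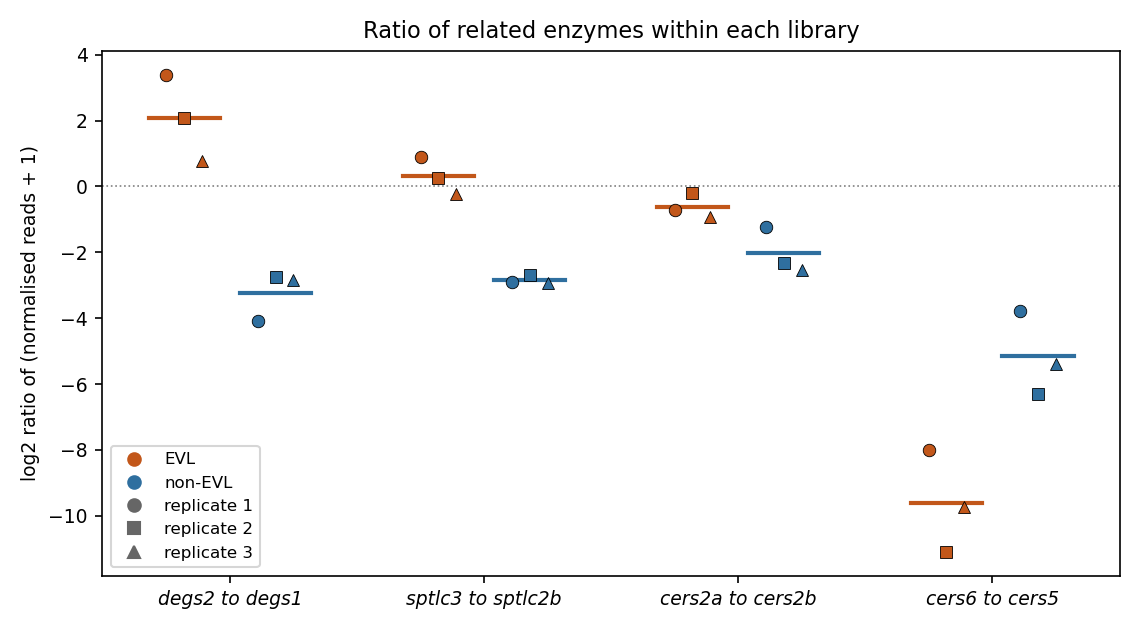
Log2 ratio of (normalised reads + 1) of related enzymes within each library, by pair. Points are libraries (orange EVL, blue non-EVL, shape by replicate), bars are group means, and the dotted line marks equal reads. The EVL libraries lie above the non-EVL libraries for the first 3 pairs, by 5.31, 3.15 and 1.42, and below for cers6 to cers5.

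The replicates of a group differed in a way that the EVL markers shared. Of the 1405 genes called higher, 1206 (85.8%) had their highest EVL value in replicate 1, and so had degs2, sptlc3 and cers5, as well as sptlc1. The same 4 enzymes were lowest in EVL replicate 3, as were all 6 EVL markers, of which krt18 had 621621, 251055 and 191050 normalised reads. In contrast degs1 had its lowest EVL value in replicate 1 and its highest in replicate 3, as had 4 of the 5 deep cell markers (sox3, ta, eve1 and szl). The other one, sox2, had 1683, 1647 and 1530 normalised reads in EVL replicates 1, 2 and 3, highest in replicate 1 and lowest in replicate 3. Non-EVL replicate 1 had the lowest non-EVL level of degs2, sptlc3 and cers5 and of all 6 EVL markers. It also had the lowest non-EVL level of the deep cell markers sox2, sox3, ta and eve1, and the highest of szl. Among the other enzymes, non-EVL replicate 1 had the lowest non-EVL level of sptlc2b. It had the highest of sptlc1, cers2a, cers2b, degs1 and the barely detected cers6. What set these levels was not tested.

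In non-EVL libraries the mean level of the 6 EVL markers was 2.43% to 3.49% of their EVL mean. The corresponding value was 3.66% for degs2, 6.90% for sptlc3 and 11.9% for cers5. In the other direction, the EVL mean stood at 51.9% of the non-EVL mean for cers2b and at 65.6% for degs1, against 22.4% to 54.4% for the 5 deep cell markers. How far cells of 1 group present in the other set these levels was not tested, and in such sorted bulk RNA fewer cells with a transcript and less of it per cell cannot be told apart. Without EVL replicate 1, degs2, sptlc3 and cers5 were still called (log2 fold changes from 2.45 to 4.21) and cers2b was not.

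**Figure D4:**
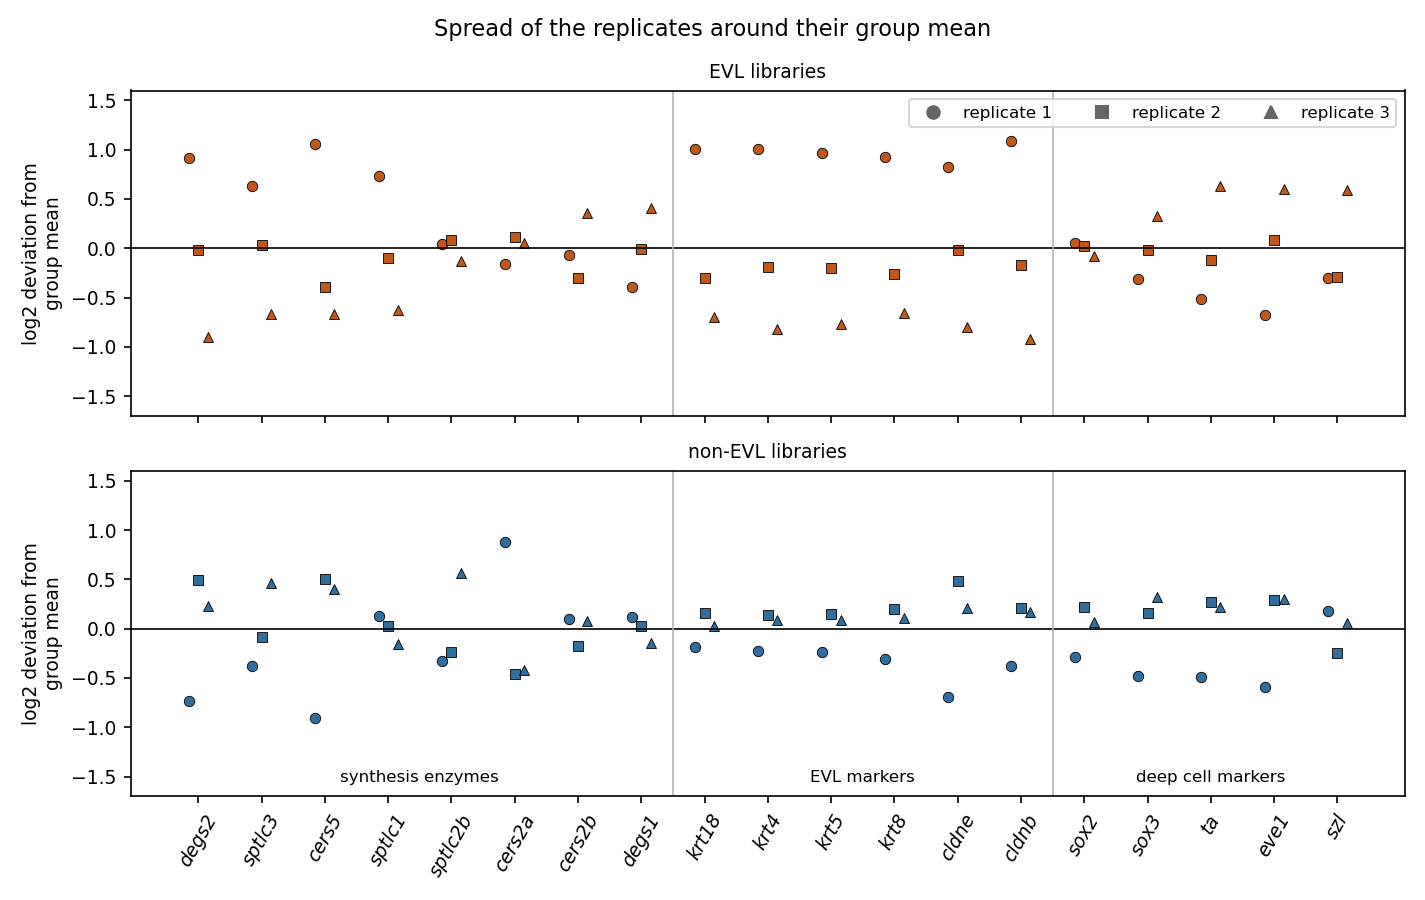
Deviation of each library from the mean of its group, in log2(normalised reads + 1), for 8 of the enzymes (cers6 left out for its low counts), 6 EVL markers and 5 deep cell markers. The upper panel holds EVL and the lower panel non-EVL libraries, with shape by replicate. EVL replicate 1 is highest for degs2, sptlc3, cers5, sptlc1 and all EVL markers, and lowest for degs1.

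The genes whose profile over the 6 libraries was most like that of a called enzyme were found by the root mean square difference of mean-centred log2 values. For degs2 these were hsd17b12a (0.09), the ketoacyl-CoA reductase of fatty acid elongation, clic3 (0.09) and gdpd3a (0.09). For sptlc3 they were dnmbp (0.16), fryb (0.16) and fkbp14 (0.19), and for cers5 swap70b (0.12), galnt12 (0.18) and tmem179 (0.18). For cers2b they were hes6 (0.07), fam58a (0.10) and xylt1 (0.11). The 6 libraries form 2 groups, and all 12 of these profiles separate them.

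Around the 9 enzymes, 82 further genes of the pathway on 7 lists could be tested. Of these 20 (24.4%) were called higher and 1 (1.22%) lower in EVL cells, with a median log2 fold change of 0.45, and the shares over all genes were 8.80% and 0.676%. Scaling libraries to their total alone shifted the median of all genes from -0.06 to -0.36 and the list medians with it. The lists were written with earlier results of these data known, so these counts describe them and test nothing.

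The remaining genes of de novo synthesis showed no call, among them kdsr, the reductase that follows serine palmitoyltransferase. It had 241, 95.2 and 171 normalised reads in EVL and 176, 91.0 and 195 in non-EVL libraries, with overlapping groups (log2 fold change 0.11; limma, adjusted p = 0.912). Of 3 tested, 0 were called by limma in either direction, 1 had an unadjusted p under 0.05, and edgeR and DESeq2 called 0. Over all tested genes 8.80% were called higher and 0.676% lower, so 0 calls among 3 genes say little. The gene at that unadjusted level was sptlc2a, the other sptlc2 paralogue. It had 282, 185 and 165 normalised reads in EVL against 129, 116 and 112 in non-EVL libraries (log2 fold change 0.78; limma, adjusted p = 0.185). The ceramide synthases cers3b, cers4a and cers4b were below the filter, with at most 24.8 normalised reads in any library. In mammals CERS3 is the ceramide synthase of the epidermis, and cers3b had at most 8.27 normalised reads here. The other paralogue listed, cers3a, had no match by name among the genes measured, so its level is not known.

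Of 4 regulators of serine palmitoyltransferase tested, 1 was called higher, where 8.80% of all tested genes were. This was the small activating subunit sptssa, which rose 2.78-fold. It had 3573, 1867 and 1645 normalised reads in EVL and 906, 794 and 707 in non-EVL libraries (log2 fold change 1.48; limma, adjusted p = 0.0167), with no overlap. The call was lost without non-EVL replicate 2 (adjusted p = 0.0627) or 3 (0.0715). The inhibitor ormdl1 had a log2 fold change of -0.36 and did not pass (limma, adjusted p = 0.290). Its paralogue ormdl2 went the other way, with 886, 269 and 275 normalised reads in EVL and 79.1, 135 and 193 in non-EVL libraries. Its log2 fold change of 1.66 did not pass in limma (adjusted p = 0.104) but was called by DESeq2 (adjusted p = 0.0117). The paralogue ormdl3 had a log2 fold change of 0.21 (limma, adjusted p = 0.881).

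Downstream of ceramide, 5 of 18 genes of sphingomyelin and glycosphingolipid synthesis and ceramide transport were called higher, where 8.80% of all tested genes were. The hydroxylase fa2h, which makes the hydroxylated fatty acids of ceramides, had 16771, 14991 and 8310 normalised reads in EVL and 275, 794 and 683 in non-EVL libraries (24.1-fold; limma, adjusted p = 0.000673). The galactosyltransferase ugt8, which makes galactosylceramide, was 25.6-fold and sgms2b, a sphingomyelin synthase, 13.3-fold higher. In non-EVL libraries ugt8 was low, with 15.6, 10.1 and 7.05 normalised reads, the last below the filter's value of 10. In EVL replicates 1, 2 and 3 it had 864, 220 and 129, so it passed the filter only with the help of its EVL libraries. The glycolipid transfer gene plekha8 was 7.76-fold and samd8, a relative of the sphingomyelin synthases, 7.50-fold higher. Conversely st8sia1, a sialyltransferase of ganglioside synthesis, was 2.44-fold lower (limma, adjusted p = 0.0208), a call lost without EVL replicate 2 (0.0679) or non-EVL replicate 1 (0.0586) or 3 (0.0967). The lactosylceramide synthase b4galt6 had a log2 fold change of 0.15 and did not pass (limma, adjusted p = 0.630).

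Of 22 genes of breakdown, 3 were called higher, where 8.80% of all tested genes were. The same share applies to the 1 call among 8 genes of sphingosine-1-phosphate given below, and neither count was tested against it. The alkaline ceramidase acer1, known from mammalian epidermis, had 24058, 19419 and 9872 normalised reads in EVL and 255, 842 and 612 in non-EVL libraries. This was a 32.7-fold rise (limma, adjusted p = 0.000673), the largest among the 9 enzymes and the 5 called genes of the preceding list. Its relative acer3 was 8.93-fold and the sphingomyelinase smpd5 6.06-fold higher. The sphingolipid activator precursor psap had a log2 fold change of -0.09 and did not pass (limma, adjusted p = 0.881). Of 8 genes of sphingosine-1-phosphate metabolism and signalling, sgpl1, the lyase that ends the pathway, rose 6.69-fold (limma, adjusted p = 0.00395), and the receptor s1pr5a, at a log2 fold change of 1.02, did not pass (adjusted p = 0.116).

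Very-long-chain acyl-CoA is the substrate of several ceramide synthases. The list for acyl-CoA supply had 6 of 23 genes called higher, against 8.80% of all tested genes. It took in elongases by name, and the chain lengths they make were not measured. The elongases elovl6l, elovl1a, elovl7b and elovl7a rose 29.5-fold, 24.4-fold, 22.5-fold and 22.3-fold. The reductase hsd17b12a rose 24.1-fold, to 84988, 50690 and 28145 normalised reads in EVL from 1306, 2750 and 2414 in non-EVL libraries. The acyl-CoA synthetase slc27a4, a fatty acid transport protein of the epidermis in mammals, rose 30.7-fold. The most abundant uncalled gene was acbd3 (log2 fold change 0.62; limma, adjusted p = 0.0815).

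Of 12 genes listed for the epidermal ceramide barrier, 8 were matched. The listed alox12b, aloxe3, pnpla1 and sdr9c7 had no match by name among the genes measured, so their levels are not known. Of the 8 matched genes, 4 were below the filter (cyp4f3, abhd5a, abhd5b and tgm1l1, with at most 9.56 normalised reads in any library). The other 4, alox12, nipal4, abca12 and tgm1, were called higher, where 8.80% of all tested genes were. Of these, tgm1 passed the filter through its EVL libraries alone. The lipoxygenase alox12 was 22.7-fold, nipal4 19.6-fold and the lipid transporter abca12, which loads glucosylceramide into secretory granules in mammals, 8.81-fold higher. The transglutaminase tgm1 was 33.4-fold higher from only 8.69, 3.67 and 4.23 normalised reads in non-EVL libraries, and limma-voom missed it (adjusted p = 0.0533).

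**Figure D5:**
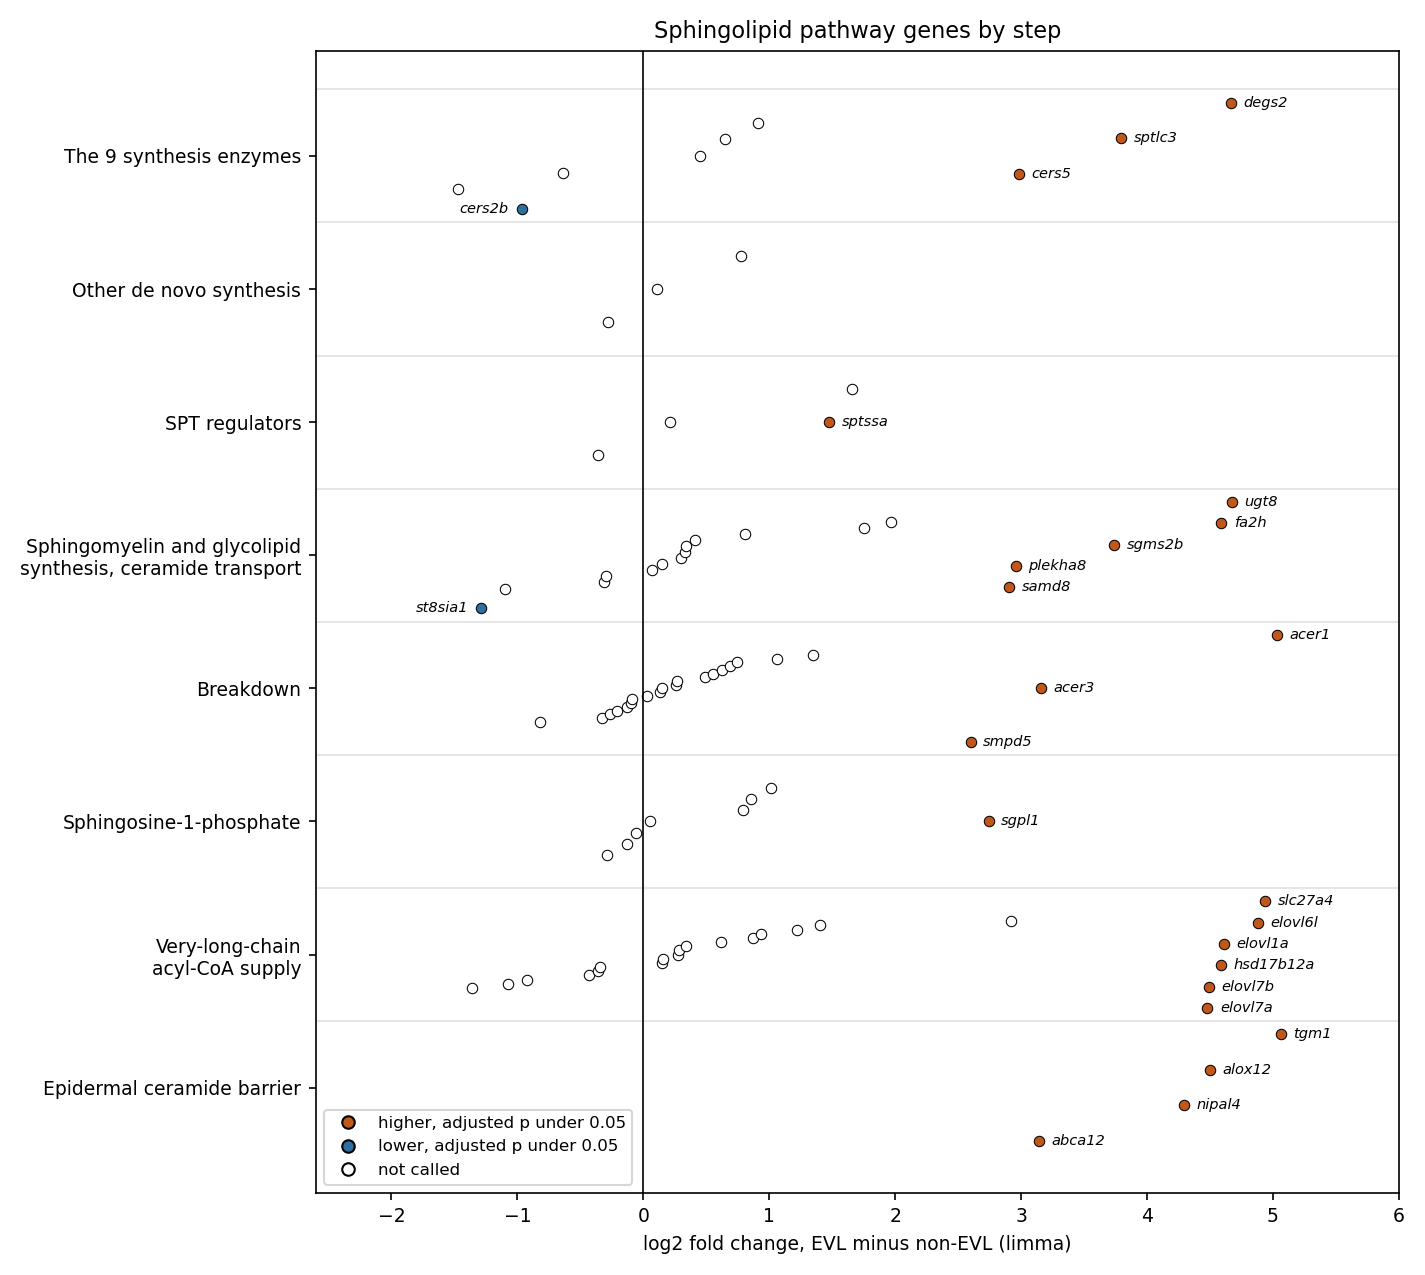
Log2 fold change (EVL minus non-EVL, limma) of the tested genes of each step of the pathway, 1 point per gene. Filled points are genes called at an adjusted p under 0.05 and carry their names, and open points are not called. Vertical position within a step only separates the points. Called genes lie mostly between 2.6 and 5.1, and the 2 lower genes are cers2b (-0.97) and st8sia1 (-1.29).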

How the data were processed

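RNA of 3 GFP-positive and 3 GFP-negative libraries was measured. The authors deposited, per library, a normalised signal per gene. Within 0.01 read, 100% of values were whole reads divided by a library factor, and those factors matched DESeq2 size factors recomputed from the reads. Per the submitters' processing notes, Trim Galore, STAR 2.6.1d, featureCounts, DESeq2 and danRer10 were used. Annotation release, strand and multi-mapped reads are not given in the sources used here, so reads shared between paralogues are uncertain. The protocol (SMARTseq2, 50 nt single-end reads) marks neither strand nor molecules, so intervals cover the spread between libraries and floors cover counting error only.

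Of 31953 genes, 15971 reached a value of 10 in 3 or more libraries and were tested with limma 3.58.1 (R 4.3.3) after adding 1 and taking log2, comparing the groups with no covariate, a mean-variance trend, robust shrinkage and Benjamini-Hochberg adjustment over all 15971. Adding 1 understates changes of low genes. Alternatives used edgeR 4.0.16, DESeq2 1.42.0 and limma-voom on the recovered reads, other scalings, pseudocounts and filters, the replicate number as a block, and 1 library left out. Ratios of related enzymes were compared with exact two-sided permutation tests.

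Genes were taken by the files' names. Further genes came from 7 lists (118 entries, 106 matched through a symbol table or the files' names, 82 tested). In each list the called genes and the uncalled gene with the highest mean are named, and beside each called enzyme the 3 genes with the smallest root mean square difference between mean-centred log2 profiles, clone names left out. Outside this rule, kdsr, ormdl2, ormdl3 and the list genes below the filter were named after their values were seen. The gene AC024175.4 was named for having the most reads, and cers3a, alox12b, aloxe3, pnpla1 and sdr9c7 because they had no match. The enzymes and lists were chosen with earlier results of these data known. No sequences or coordinates are given here.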

Additional observations from a re-analysis of the deposited data

How the results depend on the processing

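The 3 enzymes called higher, degs2, sptlc3 and cers5, kept their calls in all 19 alternative fits, and all 9 enzymes kept their direction in every fit that gave a value (18 for cers6). Of the enzymes, 1 was called lower, a count that became 0 without trend and robust shrinkage (limma, 1 at an unadjusted p under 0.05) and 2 with libraries scaled to their total, and ranged from 0 to 1 when 1 library was left out (1 to 3 at an unadjusted p under 0.05). Of the 15971 genes tested, 1405 were called higher, and 854 of the 8527 tested with a minimum of 5 CPM. These 2 counts therefore have different totals. The 108 called lower became 38 without trend and robust shrinkage, 1191, 572 and 174 with total, upper quartile and total outside the most abundant gene scaling, 54 and 68 in edgeR with TMM and DESeq2 size factors, 327 in DESeq2 and 41 in limma-voom. They ranged from 14 to 77 when 1 library was left out. The cause of these moves was not tested. The share of higher among called genes therefore depends on the scaling, with 1317 higher against 1191 lower by total alone.

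Replicate numbers gave no known pairing. Same-numbered libraries deviated together with correlations of 0.26, 0.33 and 0.075, and each library correlated best with its own number, a hint from the data and not the design. With the number as a block, 1573 genes were higher and 279 lower, and 3 and 1 of the enzymes. DESeq2 called 2 serine palmitoyltransferase regulators higher in place of 1, 8 in place of 5 genes of sphingomyelin and glycosphingolipid synthesis, 5 in place of 3 of breakdown, 2 in place of 1 of sphingosine-1-phosphate metabolism and 10 in place of 6 of acyl-CoA supply. Without trend and robust shrinkage neither sptssa (limma, adjusted p = 0.0600) nor st8sia1 (0.0517) was called, and with at least 5 CPM breakdown had 2 calls. Scaling to the total alone added 1 lower call each among regulators and acyl-CoA supply. The summed normalised reads of the ceramide synthases were 7742, 3929 and 4058 in EVL against 3626, 2909 and 3262 in non-EVL libraries. These did not overlap, a 1.53-fold difference on the log scale (exact two-sided permutation test, p = 0.1, the smallest possible). Under 3 other scalings the groups overlapped. With libraries scaled to their total alone the sums were 6772, 3434 and 3863 in EVL against 4213, 3018 and 3719 in non-EVL libraries. Depth limits cers6, which had at most 17 reads per library.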
